A study of Carya illinoinensis with 18 samples.

Results

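The last interval of a drought series in pecan (*Carya illinoinensis*) leaves, from 12 d to 15 d without water, is described here over all genes with a measurable level on these days. Its members are the 23675 genes with a mean of at least 0.1 FPKM over the 6 leaf libraries of 12 d and 15 d, out of 31074 genes in the deposited table. FPKM is a fragment count divided by the length of the transcript and by the mapped fragments of the library. Both groups are grafted seedlings with a scion of the cultivar Pawnee, 3 libraries per day, each pooled from the leaves of at least 3 plants. Pawnee scions had been patch-budded onto seedling rootstocks raised from Pawnee seed. All seedlings were watered well at first and then left dry in a growth chamber, the 12 d group for 12 d and the 15 d group for 15 d. The other 12 libraries were taken at 0, 3, 6 and 9 d. No watered seedlings of a later day are among the libraries, so the days without water and the time spent in the chamber cannot be told apart.

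A drying leaf closes its stomata under the hormone abscisic acid, takes up less carbon dioxide and shifts its transcripts. As known from model plants, genes for protective proteins, such as dehydrins and other late embryogenesis abundant proteins, are among those that rise when water loss becomes severe, whereas genes of photosynthesis and growth are among those that fall. Nearly all identifiers in the table start with CIL, and the RefSeq gene table of pecan holds 0 of them. The files thus do not pair the genes with names, products or positions, and the leaf label could not be checked against marker genes. The genes are therefore described in groups formed by their level and by their course before 12 d, and 4 genes are given by identifier.

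The 3 libraries of 15 d resembled each other, whereas those of 12 d did not. Over the 23675 genes, any pair of 15 d libraries had a correlation of 0.979 to 0.991 in log2(FPKM + 1). Among the libraries of 12 d it was 0.957 for replicates 1 and 3, 0.913 for replicates 1 and 2 and 0.853 for replicates 2 and 3. Replicate 2 of 12 d was closest to the mean profile of 9 d (r = 0.962) and of 6 d (r = 0.959), and its r with the mean of 15 d was 0.789. Replicate 3 of 12 d had an r of 0.965 with the mean of 15 d, and replicate 1 one of 0.935. These are correlations across genes within libraries, and genes are not independent replicates. The median standard deviation (SD) of a gene between the libraries of a day was 0.36 on the log2 scale at 12 d, the largest of the 6 days and 0.18 at 15 d. At 12 d it was 0.22 between replicates 1 and 3 alone. The SD at 12 d exceeded that at 15 d in 79.9% of the genes. Because of this spread, the main counts are also given without 12 d replicate 2.

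**Figure D1:**
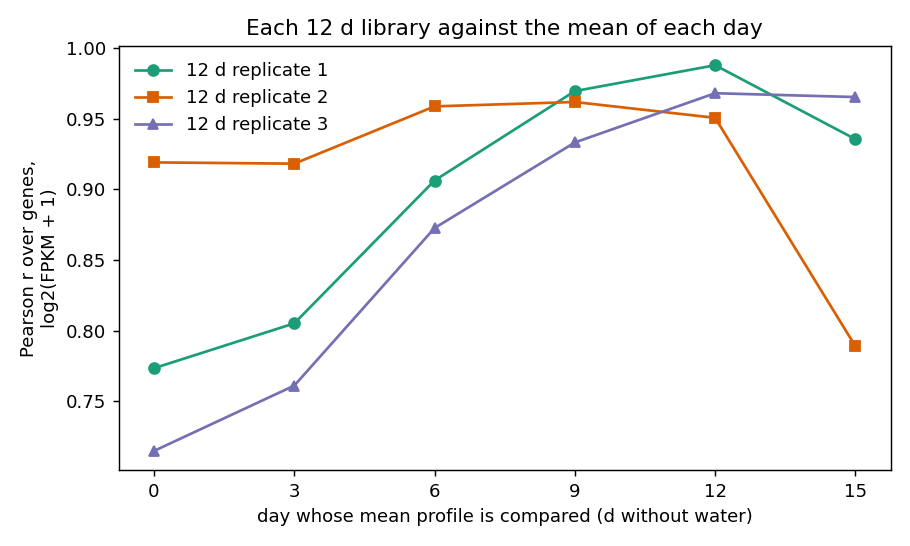
Pearson correlation (vertical axis, from 0.7) of each of the 3 libraries of 12 d with the mean log2(FPKM + 1) of each day (horizontal axis, d without water), over 23675 genes; the mean of 12 d contains the library itself. Replicate 2 drops to 0.789 at 15 d, whereas replicate 3 stays at 0.965.

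The summed FPKM of the 6 libraries lay between 545941 and 566468. FPKM keeps no read numbers. From the steps between low values, the depth of these 6 libraries was estimated at 0.882 to 0.996 of that of the deepest of the 18, so the days were sequenced to a similar depth. The estimate is rough, since only 72.5% of the pairs of libraries came within a log2 value of 0.05 of it.

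From 12 d to 15 d, more genes fell than rose in FPKM as deposited. With one mean per day fitted over all 18 libraries, limma called 5182 of the 23675 genes (21.9%) at an adjusted p under 0.05. Of these, 1365 (5.77%) were higher at 15 d and 3817 (16.1%) were lower. The 1365 include 225 genes with a mean under 0.1 FPKM over 0 d to 9 d. Those passed the filter only through 12 d or 15 d, so their count carries no information on a rise. In bulk leaves, fewer cells of a type and less RNA per cell cannot be told apart in such changes. The genes called higher had a median day mean of 9.87 FPKM at 12 d and of 22.6 FPKM at 15 d, and those called lower one of 17.9 FPKM at 12 d and of 7.24 FPKM at 15 d. A change of at least 2 on the log2 scale was reached by 212 genes that rose and by 335 that fell, and without 12 d replicate 2 by 52 that rose and 52 that fell. Without 12 d replicate 2, limma called 1396 genes (5.90%), of which 415 (1.75%) were higher and 981 (4.14%) lower, and all 415 and 967 of the 981 were also called with it. The counts of higher and lower genes were 870 and 2494 without 12 d replicate 1, 2182 and 6052 without 12 d replicate 3, 393 and 777 without 15 d replicate 1 and 649 and 1578 without 15 d replicate 2. The 3 libraries of 15 d lay above the 3 of 12 d, with no overlap, in 3001 genes (12.7%) and below them in 6423 (27.1%). Without 12 d replicate 2 this held for 3401 genes (14.4%) and 7300 genes (30.8%). Leaving a library out can only keep or raise such counts, so their rise carries no information. Of the genes called higher, 1302 had no overlap between the days, and of those called lower 3495.

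These counts depend on the spread of all 18 libraries. A fit of the 6 libraries of 12 d and 15 d alone called 0 genes with limma, with a smallest adjusted p of 0.0524, although 7219 genes had an unadjusted p under 0.05. With 12 d replicate 2 left out of that fit as well, limma called 129 genes as higher and 414 as lower.

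**Figure D2:**
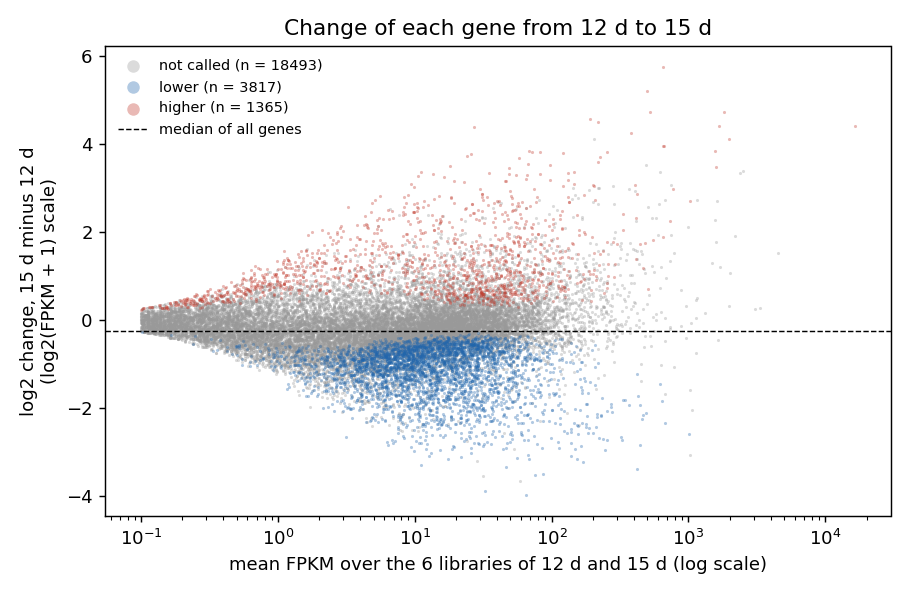
Log2 change from 12 d to 15 d of each of the 23675 genes (vertical axis, log2(FPKM + 1) scale) against its mean FPKM over the 6 libraries (horizontal axis, log scale). The 1365 genes called higher are red, the 3817 called lower are blue and all others grey, and the dashed line marks the median change of -0.24.

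The balance of rising and falling genes turned with the scale between libraries. With FPKM as deposited the median change of all tested genes was -0.24 on the log2 scale, and after median-ratio scaling, which sets the typical gene equal between libraries, it was 0.02. Genes called higher made up 26.3% of the calls in FPKM as deposited (1365 of 5182). After median-ratio scaling 2649 genes were higher and 1806 lower, so that 59.5% of the calls were higher, and after quantile normalization there were 1603 and 1375, or 53.8%. No gene was called in opposite directions as deposited and after median-ratio scaling. The genes called higher on all 3 scales numbered 1218, or 89.2% of those called as deposited, and the genes called lower on all 3 numbered 1213, or 31.8%. Of the 3817 genes called lower as deposited, 1805 were also called lower after median-ratio scaling, that is, relative to the typical gene.

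At 15 d a few genes held a larger part of the summed FPKM than at 12 d. The 10 most abundant genes of each library held 4.80%, 4.58% and 9.14% of its summed FPKM in replicates 1, 2 and 3 of 12 d, and 11.4%, 9.74% and 9.85% in those of 15 d. All 3 libraries of 15 d thus lay above all 3 of 12 d (exact permutation test, two-sided, p = 0.1, the smallest that 3 against 3 libraries can give). The most abundant gene of 15 d had 31425, 24218 and 25113 FPKM in the libraries of 15 d, which is 5.55%, 4.31% and 4.49% of their sums. In the libraries of 12 d it had 2147, 57.0 and 15580 FPKM, and in those of 0 d 4.40, 46.5 and 41.0 FPKM. Of the 12 d values of this gene, that of replicate 2 was near the level of 0 d and that of replicate 3 closest to 15 d. Its change was 4.42 in log2 units (standard error 1.49, adjusted p = 0.0461 by limma), and without 12 d replicate 2 it was 2.21, which was not called (adjusted p = 0.233 by limma). It was singled out after its values were seen. A mean of at least 1000 FPKM was reached by 54 genes at 0 d, by 29 at 12 d and by 38 at 15 d, and 3 genes were in both the 0 d and the 15 d group. Of the 38 genes at 15 d, limma called 12 as higher than at 12 d and 0 as lower, beside 5.77% and 16.1% of all genes, but they were chosen by the same 15 d values, so this is a description only. The median FPKM of the tested genes moved the other way, from 7.47, 8.14 and 6.21 in the libraries of 12 d to 4.65, 4.96 and 5.93 in those of 15 d.

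Genes that were abundant in watered leaves held a smaller share at 15 d than at 12 d. The 100 genes with the highest mean FPKM at 0 d held 23.5% to 26.3% of the summed FPKM on that day. At 12 d they held 6.02%, 15.5% and 6.13% in replicates 1, 2 and 3, and at 15 d 3.47%, 3.48% and 4.30%. The difference of the means of the 2 days was -5.48 percentage points with all libraries and -2.33 percentage points without 12 d replicate 2 (exact permutation test, two-sided, p = 0.1 in both cases, the smallest these numbers of libraries allow). The number of genes with at least 1 FPKM was 18589, 19255 and 17937 in the libraries of 12 d and 17424, 17568 and 18365 in those of 15 d. These ranges overlapped (exact permutation test, two-sided, p = 0.2). At a limit of 10 FPKM the libraries of 12 d had 10322, 10715 and 9544 genes and those of 15 d 8412, 8672 and 9241, without overlap (exact permutation p = 0.1). Few genes passed between 0 in all libraries of 1 day and at least 1 FPKM in all of the other. Changes from or to 0 that stayed below this limit were not counted. A single gene was listed at 0 in all libraries of 12 d and had at least 1 FPKM in all of 15 d, with at most 1.79 FPKM. This gene was above 0 in at least 1 library of 0 d to 9 d, so it had not been silent throughout. The reverse was shown by 0 genes.

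CIL1193S0031 had the largest rise among the 185 genes that met the rule for naming a rising gene, which asked for a call with and without 12 d replicate 2, a mean of at least 10 FPKM over the 6 libraries and no overlap between the days. It had 9.87, 2.83 and 261 FPKM in replicates 1, 2 and 3 of 12 d and 1530, 970 and 1127 FPKM in those of 15 d. By the rule, every library of 15 d was above every library of 12 d. Within 12 d the highest library was replicate 3. The 4 named genes were picked by these same values. Their calls with and without 12 d replicate 2 and their lack of overlap are thus set by the choice, and their changes may be overstated. From 0 d to 6 d it stayed between 0.08 and 7.91 FPKM, and at 9 d it had 3.05, 49.3 and 10.5 FPKM. The means were 91.1 ± 147 FPKM and 1209 ± 288 FPKM (SD, n = 3). On the log2 scale it rose by 5.74 from 12 d to 15 d (standard error 1.18, limma adjusted p = 0.00722) and by 4.48 without 12 d replicate 2 (standard error 1.12, limma adjusted p = 0.0362). After median-ratio scaling the rise was 6.11.

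CIL1358S0026 followed, with 18.2, 2.41 and 233 FPKM in the libraries of 12 d and 1080, 778 and 898 FPKM in those of 15 d. Before 12 d it never exceeded 7.87 FPKM. Its order within 12 d was that of CIL1193S0031, with replicate 2 lowest and replicate 3 highest. The means were 84.7 ± 129 FPKM and 919 ± 152 FPKM (SD, n = 3). It rose by 5.20 on the log2 scale (standard error 0.99, limma adjusted p = 0.00540), by 3.76 without 12 d replicate 2 (standard error 0.74, limma adjusted p = 0.0179) and by 5.56 after median-ratio scaling.

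CIL0990S0060 had the largest fall among the 730 genes that met the same rule for falling genes. It had 48.4, 109 and 30.4 FPKM in replicates 1, 2 and 3 of 12 d and 1.49, 2.36 and 5.34 FPKM in those of 15 d, with no overlap. From 0 d to 9 d its libraries ranged from 13.9 to 169 FPKM, so all 3 libraries of 15 d were below every earlier library. The means were 62.6 ± 41.1 FPKM and 3.06 ± 2.02 FPKM (SD, n = 3). The difference on the log2 scale was -3.88 (standard error 0.66, limma adjusted p = 0.00402), -3.39 without 12 d replicate 2 (standard error 0.70, adjusted p = 0.0214) and -3.61 after median-ratio scaling.

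CIL1006S0055 rose first and then fell. It had 3.78, 6.11 and 15.3 FPKM in the libraries of 0 d and 121, 145 and 318 FPKM in those of 6 d. On 9 d its libraries had 180, 27.8 and 175 FPKM. The replicates of 12 d stood at 194, 161 and 122 FPKM (159 ± 36.1, SD, n = 3), and those of 15 d at 12.2, 19.8 and 8.99 FPKM (13.7 ± 5.53, SD, n = 3). The 15 d libraries thus lay below those of 12 d and close to the range of 0 d. Between 0 d and 9 d it rose by 3.56 on the log2 scale (limma adjusted p = 0.00161). The change in the last interval was -3.49 (standard error 0.62, limma adjusted p = 0.00444), -3.47 without 12 d replicate 2 (standard error 0.71, adjusted p = 0.0214) and -3.13 after median-ratio scaling. In the fit of the 6 libraries alone, limma gave the 4 genes adjusted p values of 0.0524 to 0.0965, and none of them was called there.

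**Figure D3:**
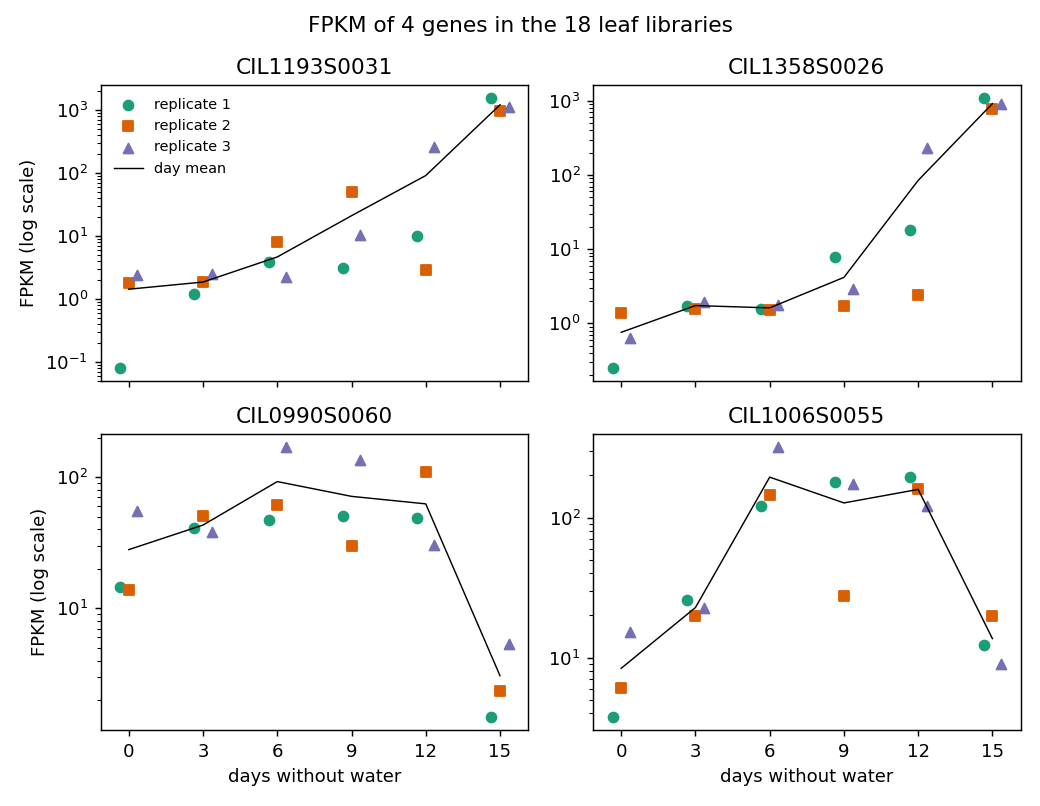
FPKM (vertical axes, log scale) of CIL1193S0031, CIL1358S0026, CIL0990S0060 and CIL1006S0055 in the 18 libraries against days without water (horizontal axes); symbols mark replicates 1 to 3 and the line joins the day means. At 15 d CIL1193S0031 has 970 to 1530 FPKM in all 3 libraries, against 2.83 to 261 FPKM at 12 d, while CIL0990S0060 has 1.49 to 5.34 FPKM, against 30.4 to 109 FPKM.

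The genes called higher at 15 d were on median already above 0 d at 6 d, whereas the genes called lower were then still at the level of 0 d. The libraries of 0 d to 9 d took no part in the contrast that chose these genes, but they entered the estimate of the spread. The level of each gene was taken relative to its mean log2(FPKM + 1) at 0 d. Over the 1365 genes called higher, the medians of 3, 6, 9, 12 and 15 d were 0.07, 0.31, 0.49, 0.70 and 1.72. Of these genes, 83.6% had a mean above 0 d at 9 d. Over the 3817 genes called lower, they were 0.01, -0.01, -0.16, -0.31 and -1.25. Of these, 40.6% had a mean above 0 d at 9 d, and 5.08% still had one at 15 d. Over all 23675 genes the median relative to 0 d was 0.09 at 3 d and 0.08 at 9 d. The share of all genes with a mean above 0 d is not given here. In the libraries of 9 d, replicate 1 stood apart from the others for the falling genes, with a median of -0.43 against -0.07 and 0.01.

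The 12 d libraries did not form a single level for either group. The rising genes had medians of 0.70, 0.18 and 1.17 on this scale in replicates 1, 2 and 3 of 12 d and of 1.61 to 1.83 in the libraries of 15 d. The falling genes had medians of -0.34, 0.09 and -0.69 at 12 d and of -1.45 to -1.04 at 15 d. For both groups replicate 2 was thus nearest to the level of 0 d and replicate 3 nearest to that of 15 d. Where the 3 libraries of 12 d had 3 different values, replicate 3 was the highest of them in 87.1% of the rising genes, against 23.5% of all tested genes, and the lowest in 76.9% of the falling genes, against 52.2% of all. Replicate 2 was the lowest in 89.1% of the rising genes, against 30.7% of all. These shares describe genes that were chosen with the same 12 d values.

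**Figure D4:**
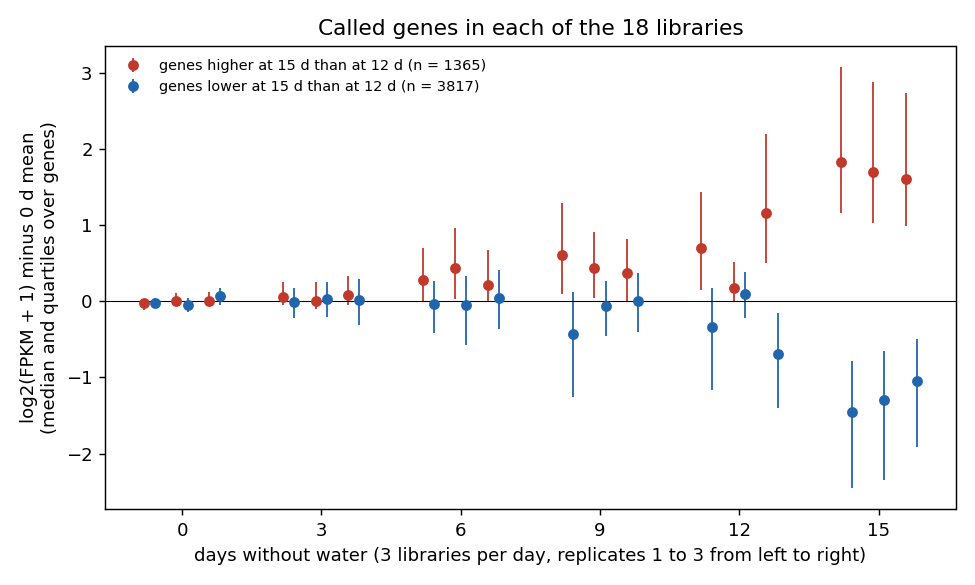
Level in each of the 18 libraries, as log2(FPKM + 1) minus the mean of 0 d (vertical axis), of the 1365 genes called higher (red) and the 3817 called lower (blue) at 15 d than at 12 d; points are medians and bars quartiles over genes, and replicates 1 to 3 run from left to right within each day (horizontal axis, days without water). The 12 d medians of the rising genes are 0.70, 0.18 and 1.17, below 1.61 to 1.83 at 15 d.

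Few of the genes lowered before 12 d were higher again at 15 d. Genes were grouped by the limma call for 9 d against 0 d (23.6% of genes called, 16.2% higher and 7.35% lower). The days compared share no library with 15 d against 12 d. Both calls use the same spread per gene, from all 18 libraries, so they are not independent. A gene with a small spread is more easily called in both. Of the 1740 genes that had fallen by 9 d, 488 (28.0%) were lower again at 15 d than at 12 d and 11 (0.632%) were higher, beside 16.1% lower and 5.77% higher among all genes. Their median change was -0.69, against -0.24 for all genes. Relative to the mean of 0 d, their median log2 level was -1.88, -0.90 and -2.08 in replicates 1, 2 and 3 of 12 d and -2.57, -2.54 and -2.23 in those of 15 d, so the days did not overlap and replicate 2 of 12 d lay furthest from 15 d. With the classes formed again in each case, the genes that fell again numbered 251 without 12 d replicate 2, 906 without 12 d replicate 3, 93 without 15 d replicate 1 and 172 without 15 d replicate 2. The genes that rose after a fall numbered 4 without any one of 12 d replicates 1 and 2 and 15 d replicate 1, 6 and 7 without 15 d replicates 2 and 3, and 18 without 12 d replicate 3. In the same 1740 genes, 352 (20.2%) were lower and 32 (1.84%) higher after median-ratio scaling, with a median change of -0.47 beside 0.02 for all genes, and with the classes formed again on that scale 666 fell again and 35 rose. The count of genes that fell again was 111 without 9 d replicate 1, the library that stood apart on that day.

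Genes raised before 12 d moved in both directions. More of them rose than fell on each scale, by a margin that depended on the scale. The balance turned when 12 d replicate 2 or any 1 library of 15 d was left out. It also turned with array weights (631 rose again and 917 fell) and without 9 d replicate 1 (318 and 330). Of the 3842 genes that had risen by 9 d, 439 (11.4%) rose again from 12 d to 15 d and 375 (9.76%) fell, beside 5.77% higher and 16.1% lower among all genes. Their median change was 0.07 against -0.24 for all genes, and their median level relative to 0 d was 1.16, 0.70 and 1.08 in replicates 1, 2 and 3 of 12 d and 1.03 to 1.12 in the libraries of 15 d. In FPKM as deposited, the group median thus stood at 15 d within the range it had at 12 d. After median-ratio scaling, 923 (24.0%) of the same 3842 genes were higher and 133 (3.46%) lower, beside 11.2% and 7.63% of all genes, and their median change was 0.43 against 0.02 for all genes. With the classes formed again on that scale, 441 rose again and 115 fell. With the classes formed again without 12 d replicate 2 there were 124 and 146. The same counts were 276 and 162 without 12 d replicate 1, 952 and 683 without 12 d replicate 3, 75 and 99 without 15 d replicate 1, 120 and 199 without 15 d replicate 2 and 277 and 289 without 15 d replicate 3. CIL1006S0055 was one of those that fell. The other 18093 genes had no call at 9 d, and of these 915 (5.06%) were higher and 2954 (16.3%) lower at 15 d than at 12 d.

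In FPKM as deposited, the share of genes called lower was greater in classes of higher abundance before 12 d. Classes were formed by the mean FPKM over the 12 libraries of 0 d to 9 d. Among the 777 genes with 100 FPKM or more, 316 (40.7%) were lower at 15 d than at 12 d and 16 (2.06%) were higher, and the median change was -0.69. Among the 10391 genes with 10 to 100 FPKM, 26.3% were lower and 4.70% higher. With 1 to 10 FPKM, 8.16% of 9003 genes were lower and 4.21% higher, and with 0.1 to 1 FPKM, 0.974% of 2874 genes were lower and 8.94% higher. A change on the log2(FPKM + 1) scale is understated where FPKM is low, and a low gene has little room to fall. The 630 genes under 0.1 FPKM before 12 d, of which 225 were called higher, passed the filter only through their levels at 12 d or 15 d, so their count carries no information on a rise. After median-ratio scaling the most abundant class still had 28.8% lower and 5.15% higher, whereas in the class of 10 to 100 FPKM both shares were 12.1% and in that of 1 to 10 FPKM the balance turned, with 3.40% lower and 7.84% higher. Without 12 d replicate 2, 15.4% of the most abundant class were lower and 0.386% higher.

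**Figure D5:**
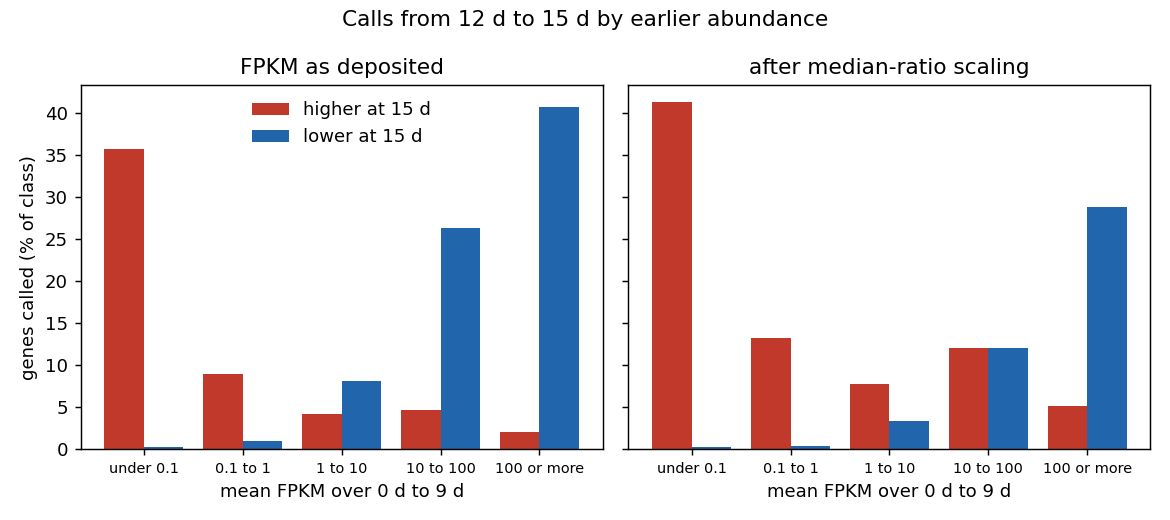
Percentage of genes called higher (red) and lower (blue) at 15 d than at 12 d (vertical axis) in 5 classes of mean FPKM over 0 d to 9 d (horizontal axis), for FPKM as deposited (left) and after median-ratio scaling (right). In the class of 100 FPKM or more, 40.7% and 28.8% are lower; the class under 0.1 FPKM passed the filter only through 12 d or 15 d.

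Genes with consecutive identifiers shared a direction more often than all such pairs did. The meaning of the numbering is not given in the sources used here, and RSEM divides reads among similar genes, so neighbours that share reads are not independent. Among the 962 rising genes whose next-numbered gene was also tested, this next gene was higher too in 160 (16.6%) and lower in 108 (11.2%), against 5.87% and 16.2% over all 15597 such pairs. Among the 2556 falling genes with a tested next gene, it was lower too in 522 (20.4%) and higher in 92 (3.60%). Whether reads were shared between them was not tested.

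The interval from 12 d to 15 d had more calls than any other interval of 3 d in the same fit. The genes tested were chosen by their level at 12 d and 15 d, which favours this interval. Genes expressed only before 12 d were left out, and 225 of the 1365 genes called higher had a mean under 0.1 FPKM over 0 d to 9 d. The order of the intervals under another filter was not tested. Limma called 3 genes (0.0127%) from 0 d to 3 d, 1198 (5.06%, 4.49% higher and 0.574% lower) from 3 d to 6 d, 1 (0.00422%) from 6 d to 9 d and 0 from 9 d to 12 d, where 468 genes had an unadjusted p under 0.05. Without 12 d replicate 2 the counts were 1657 from 3 d to 6 d, 25 from 9 d to 12 d and 1396 from 12 d to 15 d, so the interval from 3 d to 6 d then had the most. Neighbouring intervals share the libraries of a day, and a call in one interval only does not show a difference between them. The intervals from 12 d to 15 d and from 6 d to 9 d share none, and the difference of these 2 changes was tested in the fit of all 18 libraries. It was called by limma in 76 genes (0.321%). In 47 of them (0.199%) the change from 12 d to 15 d lay above that from 6 d to 9 d, with a median of 1.59 against -0.02 on the log2 scale. In 29 (0.122%) it lay below, with medians of -1.32 and 0.28. Without 12 d replicate 2 there were 22 and 7 such genes, and the total was 16 without 12 d replicate 1, 2516 without 12 d replicate 3 and 25 without 9 d replicate 1. None of the 4 genes given by identifier was among them (adjusted p of 0.111 to 0.208 from limma).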

How the data were processed

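Leaf libraries of 18 samples were measured by RNA-Seq on an Illumina NovaSeq instrument. The authors computed FPKM with RSEM and deposited one table, with 2 decimals per value. The submitters' processing notes also name fastp 0.18.0, Bowtie2 2.2.8, HISAT2 and StringTie 1.3.1, while the genome build and annotation are not given in the sources used here. Column names gave the library of every column, and 0 columns stayed unused. FPKM was transformed as log2(FPKM + 1). Genes with a mean of at least 0.1 FPKM over the 6 libraries entered a linear model in limma 3.58.1 under R 4.3.3 (one mean per day over 18 libraries, eBayes with a trend, Benjamini-Hochberg adjustment, two-sided, calls at an adjusted p under 0.05). The model was tried on simulated data in which a gene had the same spread on all days. The spread of these libraries differed between days, so the trial does not cover that case. Alternatives covered scaling, pseudocount, filter, libraries, weights, fold limit and replicate number. Named genes were the 2 largest rises and the 2 largest falls under the rule given with them. The members, groups and rules were chosen with earlier results of these data known. The labels do not say whether replicate numbers pair the libraries, and the main fit used no pairing. The libraries are stated to be biological repetitions.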

Additional observations from a re-analysis of the deposited data

Results flagged for a closer look

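The change from 12 d to 15 d and the change from 6 d to 9 d, which share no library, differed by limma's test of their difference in 47 genes where the later change lay above the earlier and in 29 where it lay below. The 76 genes were chosen by a difference that contains the change from 12 d to 15 d, so their own calls in that interval are no separate result. Of the 47 and the 29 genes, 22 and 6 were called with and without 12 d replicate 2.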

How the results depend on the processing

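The counts of calls moved with most settings. The difference in genes with at least 0.1 FPKM per library was -141 with all 6 libraries and 15.7 without 12 d replicate 2 (exact permutation p = 0.6 and 1). Genes risen or fallen by 9 d were chosen again under each setting that holds 0 d and 9 d. Median-ratio scaling gave 2649 higher and 1806 lower genes and a median change of 0.0167, with 115 genes risen by 9 d that fell and 35 fallen by 9 d that rose. Quantile normalization gave 1375 lower genes, a median of -0.0154, 287 and 108 genes risen by 9 d that rose again or fell, 18 fallen genes that rose and 45 genes whose change differed from that of 6 d to 9 d. This last number was 12 with a pseudocount of 0.1, 40 with 0.5, 3501 with array weights and 28 with the replicate number as a block. The block gave 1243 higher and 3610 lower genes. The deviations of same-numbered libraries of 12 d and 15 d had r of 0.06, -0.26 and -0.44 over genes. Differently numbered libraries had r of -0.402 to 0.482, so these values cannot decide whether the numbers pair the libraries. Array weights also gave 917 risen genes that fell, and 1157 and 41 fallen genes that fell again or rose. A log2 change of at least 1 left 716 higher and 1929 lower genes, 219 and 175 risen genes that rose again or fell, and 4 fallen genes that rose. The 6 libraries alone gave 0 higher, 0 lower and 0 in each of these groups. Further alternatives were chosen after seeing the data: the 6 libraries without 12 d replicate 2 gave 129 and 414, and without 9 d replicate 1 there were 111 fallen genes that fell again and 25 genes whose change differed. Leaving out single libraries of 12 d or 15 d gave 393 to 2182 higher and 777 to 6052 lower genes, 75 to 952 and 99 to 683 risen genes that rose again or fell, 93 to 906 and 4 to 18 fallen genes that fell again or rose, 16 to 2516 genes whose change differed, and a median of -0.31 to -0.17. The causes were not tested. The difference from 6 d to 9 d could not be fitted in the 6 libraries alone. FPKM with 2 decimals keeps no counts, so changes of low genes are understated and their counting error is unknown.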
